A study of Mus musculus with 15 samples.

Results

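The 10 genes described here carry the signal from DNA in the cytosol to the interferon regulatory factors. They were taken by name from the deposited count table, which lists 37991 gene identifiers: the DNA or nucleic acid sensors Mb21d1, Ifi204, Aim2 and Zbp1, the adaptor Tmem173, the kinases Tbk1 and Ikbke, the transcription factors Irf3 and Irf7, and the exonuclease Trex1. All 10 were found, 9 had counts and passed the filter on low counts, and Trex1 was listed at 0 throughout. In this pathway Mb21d1, which encodes cGAS, binds double-stranded DNA and makes the second messenger cGAMP. Tmem173, which encodes STING, is the membrane protein that cGAMP activates, and it brings the kinases TBK1 and IKKε to IRF3. IRF3 is present in most resting cells and is switched on by phosphorylation, whereas Irf7 is itself an interferon-stimulated gene whose product amplifies the response. In liver the pathway is known mainly from macrophages and other non-parenchymal cells, and hepatocytes are known for little STING.

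RNA was sequenced from the livers of 15 female C57BL/6 mice in 3 groups of 5: S6K1 wild-type mice aged 90 days (young WT), wild-type mice aged 600 days (old WT), and S6K1 knockout mice of 600 days (old KO). S6K1 is a kinase downstream of mTORC1, encoded by Rps6kb1. The knockout is inherited and carried by every cell of the body, before birth as well as after. An effect within liver cells therefore cannot be told apart from an effect through another tissue. The mice came from heterozygous matings, and young knockout mice were not part of these libraries, so age was compared in wild-type mice only and genotype in old mice only. In the study these genes bear on whether the inflammatory expression of the old liver passes through cGAS and STING and depends on S6K1.

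The libraries held 21801754 to 38065359 counts. Levels are given as CPM, the count of a gene over the library total after scaling between libraries (TMM), per 1000000, and 14258 genes passed the filter. Rps6kb1, the targeted gene, stood at 38.4 CPM in old WT and 17.0 in old KO, a log2 difference of -1.17 (SE 0.098, adjusted p = 8.5e-06, edgeR). All 5 knockout libraries lay below every wild-type library for this gene, at 15.2 to 20.8 CPM. The 5 hepatocyte markers summed to between 78270 and 137900 CPM, as the tissue label says. Sums of markers of other cell types are given with Irf7 and with the target genes below. In whole liver, fewer cells of a type and less RNA per cell cannot be told apart.

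The DNA shown first concerns the element that IRF proteins bind. The interferon-stimulated response element contains the letters GAAANNGAAA, in which N is any base, and it was searched on both strands of the RefSeq promoter windows (assembly GRCm38.p6, 250 bases before to 50 after a gene's start). It was present in 3.99% of 27025 genes with such a window and in 3.44% of 32851 windows. Of 25 genes listed as targets of IRF3 and IRF7, 18 had a window and 9 of these held the letters. Windows around the match are printed for 4 of those 9, chosen after their values were seen: the chemokine gene Cxcl10 and the RNA-activated synthetase gene Oas1a, which both rose with age, and Isg15 and Ifit1, which are standard readouts of the pathway. Capitals mark the letters of every match that lies whole in the stretch shown, or the reverse complement where the match is on the other strand; Isg15 holds 3 overlapping matches and Oas1a 2.
Cxcl10 (chr5:92349083-92349112, minus strand): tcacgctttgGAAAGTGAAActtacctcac
Oas1a (chr5:120907526-120907555, minus strand): cccttctcggGAAATGGAAACTGAAAatct
Isg15 (chr4:156200871-156200900, minus strand): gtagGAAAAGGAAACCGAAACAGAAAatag
Ifit1 (chr19:34640775-34640804, plus strand): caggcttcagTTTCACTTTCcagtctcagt

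Among the 10 genes themselves, 7 had a window (Mb21d1, Tbk1, Ikbke, Irf3, Irf7, Trex1 and Aim2) and 0 held the 10-letter element, which says only that those letters are not in these windows. The 120 bases before the start of Irf7 and Irf3 are shown because these are the transcription factors at the end of the pathway. Capitals mark the 4-letter unit GAAA, or TTTC on the other strand.
Irf7 (chr7:141266425-141266544, minus strand): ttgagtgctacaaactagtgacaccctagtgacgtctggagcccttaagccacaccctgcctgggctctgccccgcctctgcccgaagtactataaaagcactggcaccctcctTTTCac
Irf3 (chr7:44997528-44997647, plus strand): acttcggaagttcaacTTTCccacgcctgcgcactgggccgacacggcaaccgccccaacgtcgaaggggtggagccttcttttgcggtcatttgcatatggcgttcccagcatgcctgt
Each stretch held 1 such unit, and the full 300-base windows held 1 for Irf7 and 4 for Irf3, where the median over all windows was 3.

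Levels can be compared between genes only per length, here as CPM per kilobase of exon. On this scale Irf3 was the highest in each of the 3 groups and Mb21d1 the lowest of those with counts. In young WT the mean levels per kilobase ran from Irf3 (13.8 ± 1.0, SD, n = 5) through Tbk1 (12.2 ± 0.58), Irf7 (5.96 ± 1.6), Ifi204 (3.26 ± 1.3), Zbp1 (1.29 ± 0.65), Ikbke (1.27 ± 0.26), Tmem173 (0.918 ± 0.18) and Aim2 (0.752 ± 0.17) to Mb21d1 (0.136 ± 0.048). Neighbours in that order overlapped between libraries except that Tbk1 lay above Irf7, and Aim2 above Mb21d1, in all 5 libraries with no overlap of their ranges. In old WT the neighbours without overlap were Tbk1 above Ifi204, Zbp1 above Ikbke and Aim2 above Mb21d1, and in old KO they were Irf3, Tbk1, Irf7 and Ifi204 in turn and Aim2 above Mb21d1. The order below Ifi204 was the same in the 3 groups. Lengths are those of all annotated exons together, 9018 bases for Ikbke and 3529 for Zbp1, so the order of genes depends on the annotation. Between the groups the place of Irf7 changed. It stood above Tbk1 in old WT (12.8 ± 2.9 against 10.3 ± 1.0 per kilobase, higher in 4 of 5 libraries, ranges overlapping). In young WT and in old KO it stood below Tbk1 in all 5 libraries, with no overlap in either group.

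**Figure D1:**
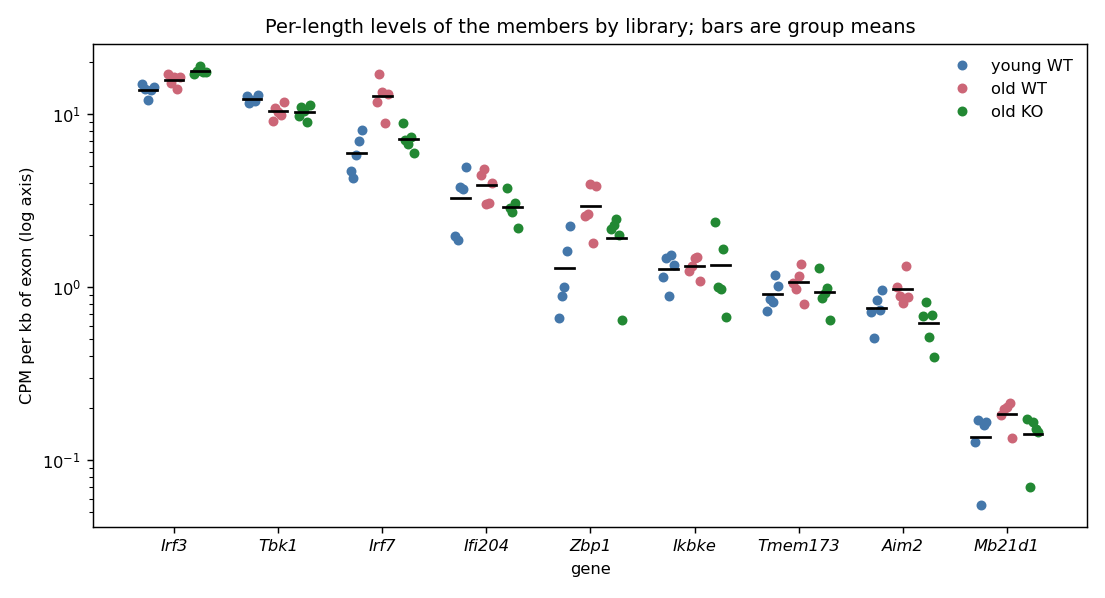
Level of 9 genes per kilobase of exon (CPM per kb, log axis) in each library of young WT, old WT and old KO liver (points, 5 per group), with the group mean as a bar. Irf3 and Tbk1 lie between 9.03 and 18.9 in every library, Mb21d1 reaches at most 0.213, and Irf7 in old WT reaches the range of Tbk1.

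Of the 9 genes tested with age in wild-type mice, Irf7 and Zbp1 rose and Tbk1 fell at an adjusted p under 0.05, the limit used throughout. Over all 14258 genes, 9.92% were higher and 8.91% lower with age at that limit, and the count of 2 higher and 1 lower among 9 genes is too small to set against that background. The fold changes were above 0 for 8 of the 9, with a median log2 change of 0.25 against 0.01 over all genes. Between old KO and old WT none of the 9 passed, and 3 of them (Irf7, Aim2 and Irf3) had an unadjusted p under 0.05, as did 11.6% of all genes. In that comparison 0.112% of all genes were higher in old KO and 0.421% lower, 7 of the 9 members were below 0, and their median was -0.40 against 0.00 over all genes. The 2 comparisons share the old WT libraries, so a high old WT library moves both, in opposite directions.

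**Figure D2:**
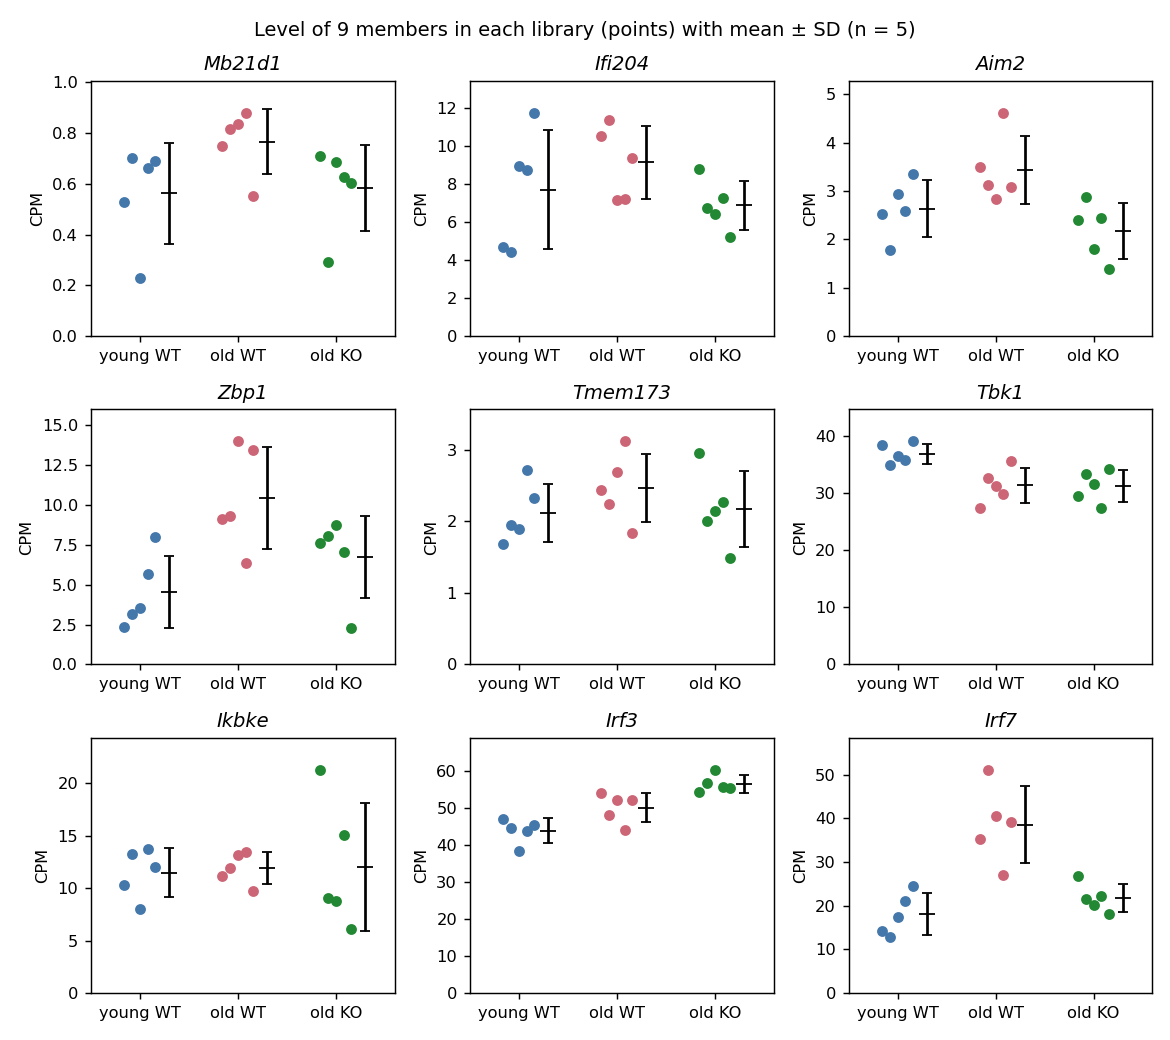
CPM of 9 genes in each liver library (points; axes start at 0) of young WT, old WT and old KO mice, with mean ± SD beside them (n = 5 per group). The old WT points of Irf7 lie above all others, between 26.9 and 51.1 CPM, those of Irf3 are highest in old KO, and those of Ikbke in old KO spread from 6.08 to 21.3 CPM.

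Irf7, the interferon-inducible transcription factor, had the smallest p of the members with age and with genotype. It lies on chromosome 7 (148448605 to 148452380 in NCBIM37, the mm9 build of the counts) and 1.49% of its exon bases overlap Phrf1 on the other strand. In the young WT libraries, in the order of the numbers in their labels, Irf7 stood at 14.2, 12.8, 17.5, 21.1 and 24.5 CPM. In old WT it stood at 35.2, 51.1, 40.5, 26.9 and 39.1 CPM, and in old KO at 26.7, 21.4, 20.3, 22.3 and 18.0 CPM. Every old WT library was above every library of the other groups, though the lowest old WT library (26.9) and the highest old KO library (26.7) nearly touched.

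With age Irf7 rose 2.15-fold in wild-type liver (95% interval 1.64 to 2.80, log2 change 1.10, SE 0.18, adjusted p = 0.001206, edgeR). It kept its call in all 23 alternative analyses, with log2 changes of 0.99 to 1.24, and 5.78% of all genes were higher in old WT with no overlap. Between old KO and old WT the log2 difference was -0.83 (SE 0.18, 95% interval -1.21 to -0.44), a 1.77-fold lower level. Its adjusted p was 0.05296, just past the limit, and 2.08% of all genes were lower in old KO with no overlap. This value passed the limit in 8 of 23 alternatives, and it ran from 0.002852 with DESeq2 to 0.2848, so the call turns on the analysis while the difference stayed between -0.94 and -0.71. The summed level of 14 monocyte and macrophage markers did not overlap between these groups either (at least 243.8 CPM in old WT and at most 227.9 in old KO), and their part in the difference was not tested. Old KO against young WT gave 0.27 (SE 0.18, 95% interval -0.11 to 0.66, adjusted p = 0.2869), an interval that holds both 0 and a 1.5-fold rise.

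Irf3, which is activated in the protein rather than by its own transcription, followed another course. It lies on chromosome 7 as well (52253018 to 52258218), with 2.76% of its exon bases shared with Bcl2l12 on the other strand. The young WT libraries held 47.2, 44.6, 38.4, 43.8 and 45.4 CPM. The old WT libraries held 54.0, 48.2, 52.3, 44.2 and 52.0 CPM, and the old KO libraries 54.3, 56.7, 60.3, 55.8 and 55.3 CPM. Old KO was the highest group, above every library of both wild-type groups, and the wild-type groups overlapped.

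Old KO exceeded young WT by 1.29-fold for Irf3 (95% interval 1.16 to 1.43, log2 difference 0.36, SE 0.071, adjusted p = 0.00228, edgeR), a call kept in all 23 alternatives. In that comparison, where age and genotype both differ, 12.0% of all genes were higher and 11.3% lower at the limit, and 7.32% were higher with no overlap. Neither part of the difference passed by itself: the log2 change with age was 0.19 (SE 0.071, adjusted p = 0.06805) and that with genotype was 0.17 (SE 0.071, adjusted p = 0.3435). Irf3 with age passed under upper quartile scaling (adjusted p = 0.04607) and without old WT library 7 (0.02398). The old KO and old WT libraries of Irf3 did not overlap, which held for 1.12% of all genes in the higher direction. The largest fold change that the 95% interval allows for genotype was 1.25.

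Taken within each library, the ratio of Irf7 to Irf3 per kilobase does not depend on how libraries are scaled to each other. It ran from 0.303 to 0.570 for young WT mice, from 0.643 to 1.12 for the old WT mice, and from 0.343 to 0.518 for the knockouts. All old WT ratios were above those of both other groups, whose ranges overlapped. This ratio was chosen after the values were seen and is a description with no test.

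Zbp1 encodes a sensor of left-handed nucleic acids that can start necroptosis, and it is also interferon-inducible. It lies on chromosome 2 (173032113 to 173044424). Its libraries held 2.34, 3.15, 3.55, 5.70 and 7.98 CPM in young WT, 9.12, 9.28, 14.0, 6.34 and 13.5 CPM in old WT, and 7.64, 8.03, 8.74, 7.04 and 2.27 CPM in old KO. Young and old WT overlapped through young WT library 6 and old WT library 7, and the last old KO library stood far below its group. Zbp1 rose 2.32-fold with age (95% interval 1.39 to 3.88, log2 change 1.22, SE 0.35, adjusted p = 0.02458, edgeR). The call was lost in 6 of 23 alternatives, of which 5 left out a library (young WT 1, 2 or 3, or old WT 5 or 10), and adjusted p over the alternatives ran from 0.005108 to 0.2706. With genotype the log2 difference was -0.63 (SE 0.34, 95% interval -1.35 to 0.10, adjusted p = 0.5112), and old KO against young WT gave 0.59 (SE 0.35, 95% interval -0.16 to 1.33, adjusted p = 0.2392).

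The remaining sensors did not pass in any comparison. Aim2, the DNA receptor of an inflammasome, lies on chromosome 1 (175281010 to 175396171), as does Ifi204 (175677424 to 175697050), the mouse HIN-200 protein usually set beside human IFI16. Both belong to a cluster of similar genes, so reads may have been split or lost between relatives and their values are uncertain. Aim2 stood at 2.53, 1.77, 2.93, 2.59 and 3.36 CPM in young WT, at 3.50, 3.13, 2.83, 4.62 and 3.09 in old WT, and at 2.40, 2.87, 1.799, 2.43 and 1.39 in old KO. Old WT and old KO overlapped by a single pair of libraries, at 2.83 and 2.87 CPM. The log2 difference with genotype was -0.65 (SE 0.21, 95% interval -1.09 to -0.20, adjusted p = 0.203) and that with age 0.38 (SE 0.20, 95% interval -0.05 to 0.82, adjusted p = 0.2028).

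Ifi204 ranged from 4.40 to 11.7 CPM among young WT mice, from 7.16 to 11.4 among the old WT mice, and from 5.20 to 8.76 among knockouts, and its groups overlapped in every comparison. Its log2 differences were 0.25 with age (95% interval -0.26 to 0.76) and -0.41 with genotype (95% interval -0.92 to 0.11). Mb21d1, the cGAS gene, is on chromosome 9 (78278333 to 78291044) and 4.87% of its exon bases overlap the model Gm8093 on the other strand. It gave only 7 to 28 counts in a library, with mean levels of 0.562, 0.767 and 0.584 CPM in young WT, old WT and old KO. Its log2 differences were 0.45 with age (SE 0.29, 95% interval -0.16 to 1.06, adjusted p = 0.2873) and -0.40 with genotype (SE 0.29, 95% interval -1.02 to 0.22, adjusted p = 0.654). At this depth a 2-fold rise with age and a 2-fold fall with genotype are both within its intervals.

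Tmem173, the STING gene, is on chromosome 18 (35893332 to 35900208) and was low, at 32 to 90 counts in a library. Mean levels were 2.11 ± 0.41 CPM in young WT, 2.46 ± 0.48 in old WT and 2.17 ± 0.53 in old KO (SD, n = 5 each), and all groups overlapped. The log2 differences were 0.22 with age (95% interval -0.19 to 0.63, adjusted p = 0.4445) and -0.18 with genotype (95% interval -0.59 to 0.23, adjusted p = 0.7954). A change with age above 1.55-fold, or a fall in old KO to below 0.663 of the old WT level, lies outside these 95% intervals.

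Tbk1, the kinase that phosphorylates STING and IRF3, was the most even of the genes from library to library within young WT, with an SD of 4.75% of the mean. It lies on chromosome 10 (120983511 to 121023850). Young WT libraries held 38.4, 34.9, 36.5, 35.8 and 39.1 CPM, old WT libraries 27.4, 32.6, 31.3, 29.9 and 35.5 CPM, and old KO libraries 29.5, 33.3, 31.6, 27.4 and 34.3 CPM. The old groups covered nearly the same range, and only old WT library 10 reached the young range. Tbk1 fell with age to 0.849 of the young level (95% interval 0.756 to 0.954, log2 change -0.24, SE 0.079, adjusted p = 0.04786, edgeR). Its call was lost in 16 of 23 alternatives, 13 of them fits that left out a library. Over all 15 such fits the log2 change lay between -0.28 and -0.19.

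For Tbk1 old KO against young WT gave -0.24 as well (SE 0.080, adjusted p = 0.03775), with no overlap, as for 6.56% of all genes in that direction, and lost its call in 9 of 23 alternatives. Between old KO and old WT the log2 difference was -0.01 (95% interval -0.17 to 0.16), which bounds old KO between 0.886 and 1.12 of the old WT level. Ikbke, the related kinase IKKε on chromosome 1 (133150920 to 133176183), had mean levels of 11.5 ± 2.3, 11.9 ± 1.5 and 12.1 ± 6.1 CPM in young WT, old WT and old KO (SD, n = 5 each). The old KO libraries held 21.3, 9.08, 8.78, 15.1 and 6.08 CPM, so libraries 1 and 5 lay above and the others below all old WT values, which ran from 9.74 to 13.5. Its log2 difference with genotype was 0.02 (95% interval -0.53 to 0.57, adjusted p = 0.9931).

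**Figure D3:**
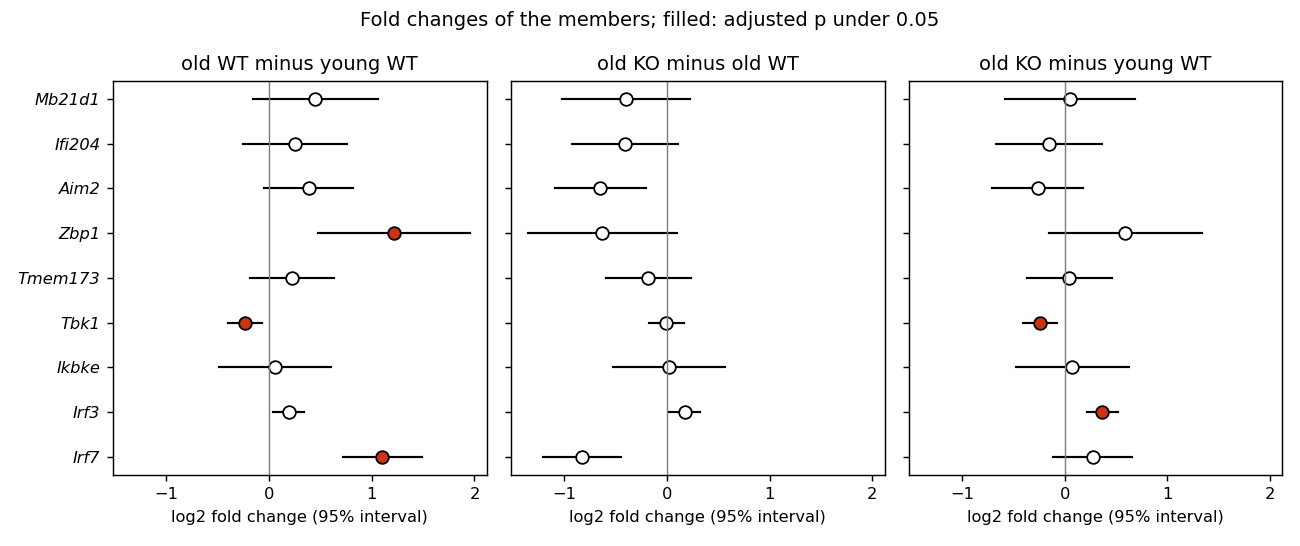
Log2 fold change of each gene (circle) with its 95% interval (line) for old WT minus young WT, old KO minus old WT and old KO minus young WT, from one edgeR fit of 15 libraries; filled circles have an adjusted p under 0.05. Irf7, Zbp1 and Tbk1 are filled with age, none with genotype, and Irf3 and Tbk1 in the last panel, and the intervals of Tbk1 and Irf3 are the narrowest.

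Trex1, the exonuclease that removes cytosolic DNA and so restrains cGAS, was listed at 0 in all 15 libraries. It lies on chromosome 9 (108960447 to 108962852) and 100% of its exon bases lie within exons of Atrip on the same strand. All 77 protein-coding genes whose exon bases are wholly shared with another gene on the same strand were at 0 in every library, against 22.4% of 17600 genes that share no exon base. Of 30 genes wholly covered on the opposite strand only, 29 were at 0 as well. The counting therefore left out reads in shared exons and took no account of strand, and the 0 says nothing about the level of Trex1. Atrip itself was counted at 6.84 ± 0.74 CPM in young WT, 5.88 ± 0.36 in old WT and 6.30 ± 1.5 in old KO (SD, n = 5 each), from the part that Trex1 does not share.

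Genes on either side of these 10 were followed in 8 lists. Downstream, the 25 target genes of IRF3 and IRF7 had a median log2 change with age of 0.51 against 0.01 over all genes, with 23 of 25 above 0. Of these, 6 rose (Ccl5, Cxcl10, Oasl2, Oas1a, Cmpk2 and Ifi44) and 0 fell, where 9.92% of all genes were higher and 8.91% lower. Ccl5, a chemokine for T cells, went from 0.955 to 3.81 CPM (log2 change 2.01, SE 0.38, adjusted p = 0.002618) and its old and young WT libraries did not overlap, as for 5.78% of all genes in that direction. Cxcl10, another T-cell chemokine, went from 1.94 to 5.05 CPM (log2 change 1.41, SE 0.36, adjusted p = 0.01292), and the synthetase relative Oasl2 from 4.37 to 7.55 CPM (0.80, SE 0.23, adjusted p = 0.02609). Without a library at a time, 2 to 8 of the 25 passed with age.

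Between old KO and old WT, 24 of the 25 targets lay below 0, with a median of -0.66 against 0.00 over all genes. None passed with edgeR, and up to 5 passed in the alternatives. An unadjusted p under 0.05 was found for 15 of the 25, against 11.6% of all genes. The nearest were Oas1a (1.88 to 0.785 CPM, log2 difference -1.25, SE 0.28, adjusted p = 0.06186), Lgals3bp (76.5 to 54.3 CPM, -0.49, SE 0.11, adjusted p = 0.0659) and Mx1 (2.46 to 1.06 CPM, -1.20, SE 0.29, adjusted p = 0.07979), named after their values were seen. For 3 of the 25 (Oas1a, Mx1 and Ifit2) old KO was lower than old WT with no overlap, against 2.08% of all genes. Old KO against young WT gave a median of 0.00 for the list, with 13 above and 12 below 0.

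Markers of macrophages and of leukocytes in general also differed between the groups. The summed level of 14 monocyte and macrophage markers ran from 184.5 to 423.2 CPM for young WT mice, from 243.8 to 599.6 for the old WT mice, and from 148.1 to 227.9 for knockouts, with no overlap between the old groups. With age 4 of the 14 rose, where 9.92% of all genes were higher, and 13 were above 0. With genotype 4 of the 14 (Cd5l, Clec4f, Cd68 and Vsig4) were lower in old KO, where 0.421% of all genes were lower, and 13 were below 0. In old KO against young WT 2 of the 14 were higher and 4 lower, with a median of -0.59 against -0.01 over all genes. Over all genes 12.0% were higher and 11.3% lower in that comparison. The sum of 5 common leukocyte markers ran from 26.7 to 60.3 CPM for young WT mice, from 50.4 to 73.9 for the old WT mice, and from 25.3 to 49.0 for knockouts. Of these, 2 rose with age, and with genotype 0 passed while 5 had an unadjusted p under 0.05, as did 11.6% of all genes.

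Other immune sums were smaller, and none of their tested markers passed with genotype. With age 3 of 8 tested T and NK cell markers and 1 of 5 B cell markers rose, and 0 fell. Their median log2 changes were 1.10 and 0.70, against 0.01 over all genes. Of 5 tested conventional dendritic cell markers 1 rose and 1 fell with age. Over all genes 9.92% were higher and 8.91% lower with age. The sums are over all listed markers, including those too low to test. The 9 markers of T and NK cells (8 tested) summed to 2.87 to 5.84, 3.84 to 11.1 and 2.53 to 7.49 CPM in young WT, old WT and old KO. Those of B cells (5, all tested) summed to 2.87 to 6.15, 4.32 to 12.7 and 3.34 to 7.55 CPM in the same order. The 4 markers of plasmacytoid dendritic cells, which hold much Irf7, summed to at most 1.37 CPM in any library. The 2 of them that were tested were both below 0 with age. The 6 conventional dendritic cell markers (5 tested) summed to 14.1 to 20.01 CPM in all. The 6 neutrophil markers (2 tested) reached a sum of 11.9 CPM in old WT. The neutrophil marker Ly6g had 1 count over all libraries, and no marker of these lists was at 0 in all of them. Endothelial (6) and stellate cell (5) marker sums overlapped between all groups. By single markers, 2 of the 6 endothelial markers fell with age and 0 rose, with a median log2 change of -0.42. Of 5 stellate cell markers 1 fell with age and 0 rose, and of 5 hepatocyte markers 1 fell and 0 rose. Over all genes 8.91% were lower with age. With genotype 0 markers of these lists passed. The part that these cells have in the differences of Irf7, Zbp1, Aim2 and the target genes was not tested.

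**Figure D4:**
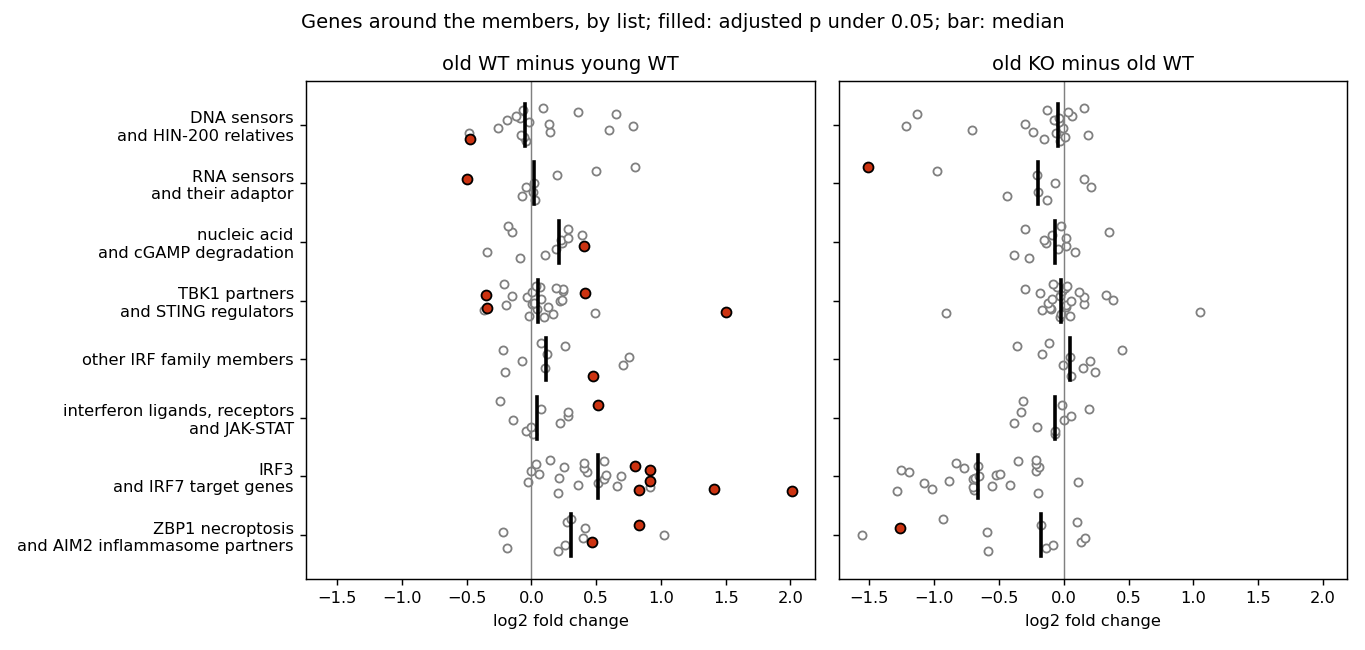
Log2 fold change of each tested gene of 8 lists (circles), with age in wild-type mice and with genotype in old mice; filled circles have an adjusted p under 0.05 and vertical bars are list medians. The 25 IRF3 and IRF7 targets have medians of 0.51 and -0.66, and the medians of the other 7 lists lie between -0.05 and 0.31 with age and between -0.20 and 0.05 with genotype.

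The interferons that the pathway is named for were hardly counted. Ifnb1, Ifna1, Ifna2, Ifna4, Ifnl2 and Ifnl3 were listed at 0 in all 15 libraries, and Ifng had 11 counts over all of them, which does not show that they are absent. Of the 10 genes tested among receptors, kinases and STAT proteins, 1 rose with age, where 9.92% of all genes were higher, and 0 passed with genotype. It was Tyk2, the kinase at the type I interferon receptor, which went from 17.2 to 24.5 CPM (log2 change 0.52, SE 0.096, adjusted p = 0.002551, edgeR). Its young and old WT libraries did not overlap, as for 5.78% of all genes in that direction. Tyk2 in old KO stood at 24.3 CPM, a log2 difference from old WT of -0.01 (SE 0.096). Among 10 other members of the IRF family and their binding partners, 1 rose with age and 0 passed with genotype. Over all genes 9.92% were higher with age, so this count is no result about the list. The gene was Irf1, a factor of the interferon response, which went from 23.0 to 32.0 CPM (0.48, SE 0.15, adjusted p = 0.03579, edgeR).

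At the kinase step, 26 partners of TBK1 and regulators of STING gave 2 genes higher and 2 lower with age and 0 with genotype, counts that lie near the 9.92% higher and 8.91% lower of all genes and so are no result about the list. Insig1, an endoplasmic reticulum protein known chiefly as a brake on sterol synthesis, rose from 51.6 to 146.1 CPM (2.83-fold, 95% interval 1.55 to 5.19, adjusted p = 0.0197). The TBK1 adaptor Tbkbp1 rose from 8.07 to 10.7 CPM (0.41, SE 0.12, adjusted p = 0.02509), and the autophagy receptor Optn fell from 149.2 to 117.7 CPM (-0.34, SE 0.10, adjusted p = 0.02914). The fourth was Tank, an adaptor of the same kinases, which fell from 22.6 to 17.8 CPM (-0.35, SE 0.11, adjusted p = 0.03148, edgeR) and is named as the remainder of the count. In old KO Insig1 stood at 302.4 ± 186.6 CPM and Tank at 22.4 ± 2.3 (SD, n = 5 each). Tbkbp1 stood at 9.43 ± 1.3 and Optn at 109.2 ± 18.4. None of them passed against old WT, at adjusted p of 0.1967 (Tank) to 0.7557 (Optn) with edgeR.

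Of 18 other DNA sensors and HIN-200 relatives, 1 passed with age, where 8.91% of all genes were lower: the helicase gene Dhx36, falling with age from 68.4 to 49.3 CPM (-0.47, SE 0.094, adjusted p = 0.003607). With genotype 0 of the 18 passed, and 3 of them (Ifi205, Mnda and Pyhin1, all of the HIN-200 family) were lower in old KO with no overlap, against 2.08% of all genes, at adjusted p of 0.1121 to 0.6452. They are named after their values were seen. Their levels were low: Ifi205 0.78 and 0.48 CPM in old WT and old KO, Mnda 0.78 and 0.33, and Pyhin1 2.37 and 1.07. As for Aim2 and Ifi204, reads may have been split or lost between relatives, so these values are uncertain. Among 9 RNA sensors and adaptors, 1 fell with age, where 8.91% of all genes were lower, so this count is no result about the list. It was Ticam1, the adaptor of TLR3, which went from 20.4 to 14.5 CPM (-0.50, SE 0.16, adjusted p = 0.04064, edgeR). With genotype 1 of the 9 passed, where 0.421% of all genes were lower. This was Tlr9, the endosomal receptor for DNA, lower in old KO at 0.182 against 0.534 CPM (-1.51, SE 0.32, adjusted p = 0.04588, edgeR). Its call was kept in 7 of the 22 alternatives that tested it.

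Of 12 genes that degrade nucleic acids or cGAMP, 1 passed with age, where 9.92% of all genes were higher. It was Enpp1, the ectoenzyme that hydrolyses cGAMP, which rose from 45.5 to 60.3 CPM (0.41, SE 0.067, adjusted p = 0.00123, edgeR) with no overlap, as for 5.78% of all genes in that direction. It stood at 60.9 CPM in old KO, a log2 difference from old WT of 0.02 (SE 0.067). Among 11 partners of ZBP1 and AIM2 in necroptosis and the inflammasome, 2 rose with age, where 9.92% of all genes were higher. The pore protein gene Gsdmd rose from 18.3 to 25.4 CPM (0.47, SE 0.093, adjusted p = 0.003482, edgeR). The adaptor gene Pycard rose from 0.448 to 0.795 CPM (0.83, SE 0.21, adjusted p = 0.01415, edgeR). With genotype 1 of the 11 passed, where 0.421% of all genes were lower. This was Nlrp3, a sensor of another inflammasome, lower in old KO at 0.612 against 1.49 CPM (-1.26, SE 0.25, adjusted p = 0.0384, edgeR), a call kept in 12 of 23 alternatives. Of the genes of these lists named with age, Dhx36, Enpp1, Tyk2 and Ccl5 kept their calls in all 23 alternatives and Gsdmd, Pycard and Cxcl10 in 22, while Ticam1, Irf1, Tank, Tbkbp1, Optn, Insig1 and Oasl2 kept them in 15 to 19 and in 8 to 12 of the 15 fits without a library.

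Across the 15 libraries, with each group's mean removed, some pairs of members rose and fell together from mouse to mouse. Irf7 went with Ifi204 (Pearson r = 0.84) and Zbp1 (0.69), and Zbp1 with Ifi204 (0.62), while Tmem173 went with Ikbke (0.80). Weaker links ran across these pairs: Aim2 with Ifi204 (0.53) and Tmem173 (0.51), Mb21d1 with Ikbke (0.52), and Zbp1 with Tmem173 (0.48). Irf3 was near 0 with Irf7 (0.07), and Tbk1 was negative with both Tmem173 (-0.58) and Ikbke (-0.58). These are descriptions over libraries that share a scaling and a preparation, and they carry no test.

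**Figure D5:**
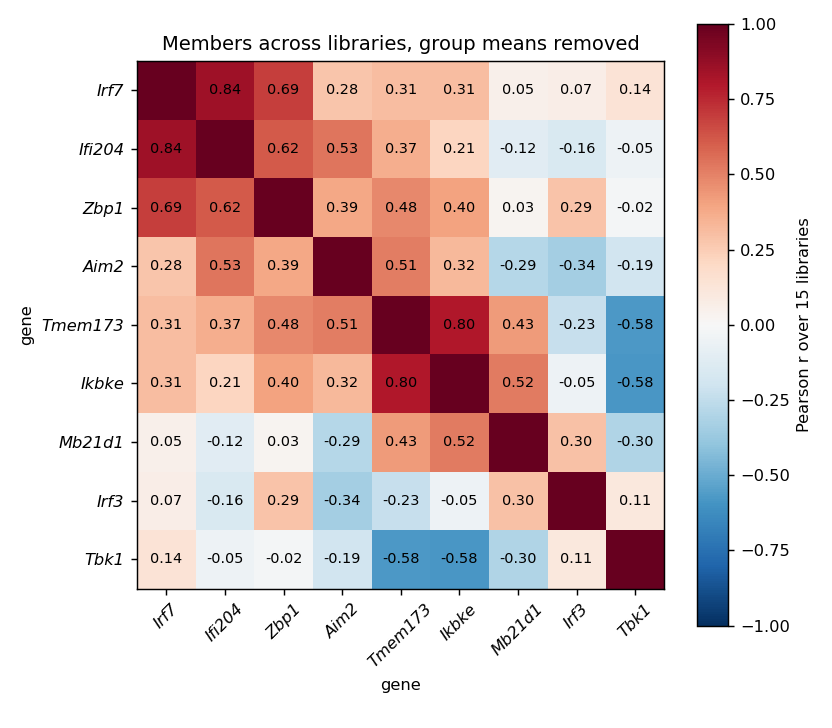
Pearson correlation of each pair of members over the 15 libraries, computed on log2 CPM after each group's mean was removed; red is positive and blue negative. Irf7, Ifi204 and Zbp1 are at 0.62 to 0.84 with each other, Tmem173 and Ikbke reach 0.80, and Tbk1 is at -0.58 with both of these.

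The same measure was taken against 12128 genes with a mean of at least 1 CPM, and the 3 nearest genes were named for each member of that level. For Zbp1 they were the interferon-inducible GTPase genes Gbp7 and Gbp6 and the target-list gene Parp14, and for Irf7 they were Pnpt1, Adamdec1 and Trim30a. For Ifi204 they were the leukocyte signalling gene Lcp2, the leukocyte receptor gene Lair1, and Hdac9. For Aim2 they were Ciita, the regulator of MHC class II genes, Tlr1 and Mmp27. Tmem173 was nearest to Pamr1, the collagen gene Col3a1 and Gpc6, with r = 0.92 for Pamr1.

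Ikbke was nearest to Myh9, S100a11 and BC029214, Irf3 to Eif2d, the glucagon receptor gene Gcgr and Slc38a10, and Tbk1 to Twistnb, Dtwd2 and the proteasome gene Psma7. Of all the neighbours named for the members, Pamr1, Col3a1, S100a11, Adamdec1, Tlr1 and Mmp27 rose with age and Psma7 fell. Over all genes 9.92% were higher and 8.91% lower with age. Mmp27 was lower in old KO (log2 difference -1.83, adjusted p = 0.00472, edgeR), where 0.421% of all genes were lower. The nearest gene to Irf7 by this measure, Pnpt1, had log2 differences of -0.01 with age and 0.05 with genotype.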

How the data were processed

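Liver RNA from 15 mice was sequenced as single-end 50-base reads from stranded mRNA libraries. Per the submitters' processing notes, CASAVA, TopHat2 2.0.11 (mm9) and DESeq2 1.18.1 were used, and the study's methods name HTSeq for counting. The annotation and the counting mode are not given in the sources used here. The deposited table holds the authors' raw read counts per gene, and no column was left out.

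Genes were kept by filterByExpr of edgeR 4.0.16 (R 4.3.3), scaled by TMM, and tested in 1 quasi-likelihood fit of the 3 groups with Benjamini-Hochberg adjustment over 14258 genes and a limit of 0.05; standard errors and 95% intervals come from that fit. CPM use TMM-scaled totals, log2 CPM a prior count of 2, and exon lengths the GENCODE M1 annotation of NCBIM37, which matched 37205 of 37991 identifiers; Mb21d1 was matched by a synonym. Totals of 21801754 to 38065359 counts set the precision. The 30 pairs of replicates differed beyond counting noise. Nothing says more of how the mice of a group relate, so p-values measure the spread between these samples.

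The members and lists were chosen with earlier results of these data known, so their counts are descriptions. Named genes were the 10 members, up to 3 called genes with the smallest p per list for age and for genotype, the 3 nearest genes by likeness, and Rps6kb1. Other genes (Oas1a, Cmpk2, Ifi44, Tank, Lgals3bp, Mx1, Ifit2, Ifi205, Mnda, Pyhin1, Isg15, Ifit1, Atrip, Ly6g, untested interferons and called cell markers) were named after their values were seen. Alternatives were RLE and upper quartile scaling, DESeq2, limma voom, no filter, a mean count of at least 10, the 10 libraries of a comparison alone, a replicate block, and each library left out (15 fits, 23 alternatives in all). The planned separate test for members under the filter gave no value, because Trex1, the only such gene, is at 0 throughout.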

Additional observations from a re-analysis of the deposited data

Results flagged for a closer look

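Each member's libraries were checked for a sample far from the others of its group, by a gap to the nearest library of more than 0.71 of the group's range. In 27 groups 2 were marked, where chance marks about 5% of groups. Mb21d1 stood at 0.2905 CPM in old KO library 2, from 8 counts, against 0.603 to 0.711 CPM in the other 4. Zbp1 stood at 2.274 CPM in old KO library 6, against 7.04 to 8.74 CPM in the other 4. Without that library the log2 difference of Zbp1 in old KO against young WT was 0.81 (adjusted p = 0.06665, edgeR) and that of Zbp1 with genotype was -0.41 (adjusted p = 0.6346), and neither passed the limit.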

How the results depend on the processing

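The replicate numbers of the labels are shared between groups, and nothing states whether they pair the mice. Deviations from the group means correlated between same-numbered libraries at -0.15 to 0.08, no pair was over 0.1, and 0 libraries correlated best with their own number. Such low correlations cannot exclude a pairing. A fit with the replicate number as a block called 899 genes with age in place of 2685 and 6 with genotype in place of 76, and among the members 1 with age in place of 3 (Irf7; Zbp1 had an adjusted p of 0.2706) and 1 in old KO against young WT in place of 2. With genotype DESeq2 called 302 genes and limma voom 23. A member, Irf7 in each case, passed with genotype under upper quartile scaling, DESeq2, no filter and the 10 libraries alone (1 against 0 in each), and without a filter 1 member passed in old KO against young WT.

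With a library left out, 1748 to 3284 genes passed with age (fewest without young WT 1), 9 to 108 with genotype, 2460 to 3829 in old KO against young WT, and 1 to 3, 0 to 1 and 1 to 2 members. The genotype count fell below 76 by over 1.5 times without old KO 2, 4, 5 or 6, old WT 1, 4, 7 or 10, or young WT 4. Only Irf7 was kept without old WT 5 or young WT 1, 2 or 3 with age. Changes of sign befell only values near 0 that were never called. With the block these were Ikbke with age (-0.35) and, in old KO against young WT, Mb21d1 (-0.20), Tmem173 (-0.044), Ikbke (-0.23) and Ifi204 (0.038); with DESeq2 Tbk1 with genotype (0.0013); with limma voom Ikbke with genotype (-0.10) and Ikbke in old KO against young WT (-0.0199). Over the fits without a library the ranges that crossed 0 were Ikbke with age (-0.039 to 0.12), Tbk1 (-0.053 to 0.043) and Ikbke (-0.29 to 0.19) with genotype, and Mb21d1 (-0.14 to 0.24), Tmem173 (-0.094 to 0.15), Ikbke (-0.23 to 0.24) and Ifi204 (-0.30 to 0.044) in old KO against young WT. The causes were not tested. Depth limits Mb21d1 most, with 7 to 28 counts in a library.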
